A study of Mus musculus with 6 samples.

Results

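The collagen prolyl and lysyl hydroxylases of mouse embryonic fibroblasts are described here in cells that had passed through narrow pores and in parental cells. The members are 9 genes, taken by gene symbol from the 55335 gene rows of the count table: the prolyl 4-hydroxylase alpha subunits P4ha1, P4ha2 and P4ha3, the prolyl 3-hydroxylases P3h1, P3h2 and P3h3, and the lysyl hydroxylases Plod1, Plod2 and Plod3. Each symbol matched 1 row, and all 9 genes passed the filter on low counts.

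These enzymes sit in the endoplasmic reticulum and modify procollagen chains before the chains wind into a triple helix. 4-Hydroxyproline keeps the helix stable at body temperature, and 3-hydroxyproline is a rare mark at a few sites of the chain. Hydroxylysine carries sugars and is a starting point of the crosslinks that lysyl oxidases make between collagen molecules. All of the hydroxylases need iron, oxygen, 2-oxoglutarate and ascorbate. Several, P4ha1, P4ha2, Plod1 and Plod2 among them, are known targets of the hypoxia-inducible factors.

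All libraries came from wild-type MEFs, a fibroblast culture grown in serum, and no agent or transgene was used. The Confine group held cells that were seeded above a membrane with 3 μm pores and collected after transmigration within 15 h, and the Control group held parental cells. The labels' treatment protocol has the same text for both groups, so the parental origin of Control rests on the design text. Passage through the pores, the selection of cells that passed and the culture on a membrane cannot be told apart in this design. The paper's transwell method, described for wider pores, seeded cells in serum-free medium above medium with serum. Whether this held for the 3 μm pores is not stated there, so a difference in serum cannot be told apart either.

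Polyadenylated RNA was sequenced, and the deposited table gives reads counted per gene in 6 columns, 3 per group. The columns of Confine replicates 1 and 2 held equal counts throughout the table. They entered as 1 library, named Confine 1/2 here, and the comparison rests on 3 Control and 2 Confine libraries with 22287210 to 32537550 counts. Nothing says that the replicates came from separate cultures, so p-values measure only the spread between these libraries. Of 10 fibroblast markers, 8 passed the filter on low counts, while Thy1 and Dcn had at most 2 and 27 counts in a library. The summed level of the 10 was 8738 to 9595 CPM (counts scaled to the normalized library size) in Control and 15720 to 16500 in Confine. In 6 of the 8 both Confine libraries lay above every Control library, as in 25.9% of tested genes. In Pdgfrb and S100a4 both lay below, as in 23.6%. No epithelial or endothelial marker passed the filter. The summed level of 6 leukocyte markers was 7.22 to 8.39 CPM in Control and 18.3 to 25.9 CPM in Confine, with Cd68 and Csf1r higher and Lyz2 lower, whereas the defining markers Ptprc, Itgam and Adgre1 had at most 2, 1 and 0 counts. The summed level of 6 cartilage and bone markers was 36.2 to 45.2 CPM in Control and 67.8 to 90.4 CPM in Confine, mostly Sox9, and that of 4 muscle markers was 4.87 to 6.56 and 13.5 to 16.0 CPM. The part of these markers in the results below was not tested. In bulk samples, fewer cells of a type and less RNA per cell cannot be told apart.

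The first question was which hydroxylases differed between Confine and Control. Of the 9 genes, 7 were higher in Confine at an adjusted p under 0.05 (edgeR's quasi-likelihood fit, adjusted by Benjamini-Hochberg over all 15881 tested genes), where 12.8% of all tested genes were higher. Only P4ha3 was lower, where 10.2% of all tested genes were lower, and P3h2 did not pass the threshold. Of the 9, 4 genes, Plod2, P4ha2, Plod1 and P4ha1, also had a log2 fold change above 1.5, the cutoff of the study's volcano plot, which 4.89% of tested genes passed upwards. P4ha3 did not reach -1.5, which 3.11% of tested genes passed downwards. The median log2 fold change was 0.99 over the 9 genes and -0.002 over all tested genes. In 7 genes both Confine libraries lay above every Control library, as in 25.9% of tested genes, and in P4ha3 both lay below, as in 23.6%.

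**Figure D1:**
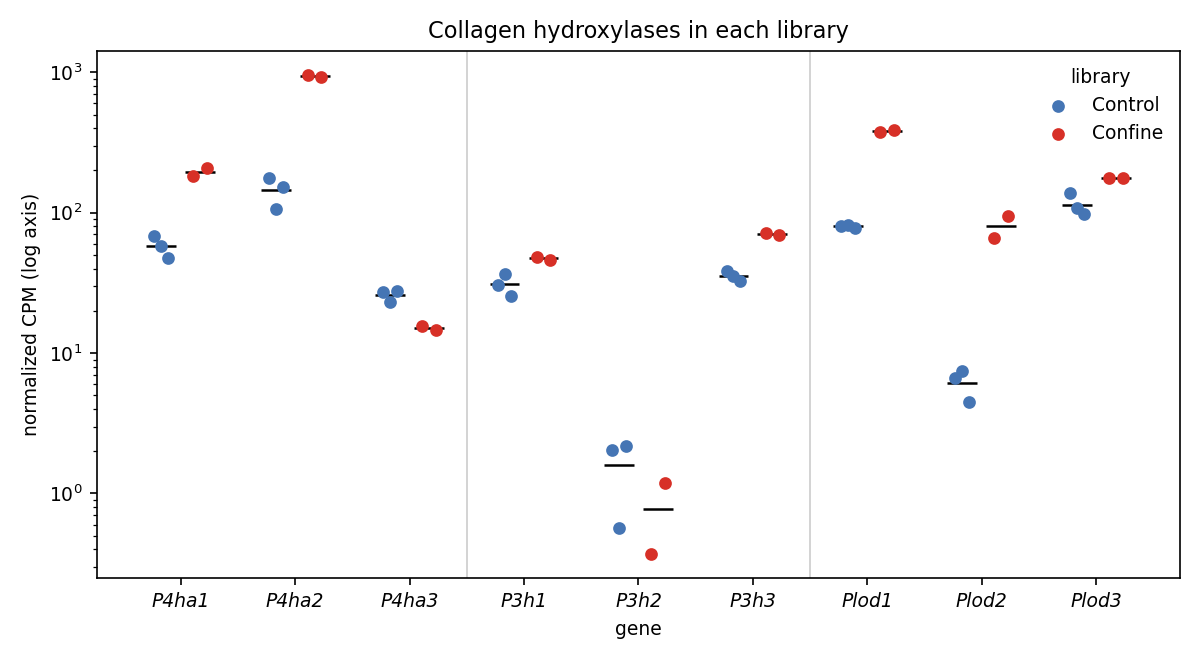
Normalized CPM of each hydroxylase gene (log axis) in the 3 Control libraries (blue) and the 2 Confine libraries (red); each point is a library and each black line a group mean. Both Confine points lie above all Control points for 7 genes and below them for P4ha3, while for P3h2 Confine 1/2 lies below all Control points and Confine 3 among them.

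The alpha subunits of prolyl 4-hydroxylase carry its active site and changed in opposite directions. P4ha1 (ENSMUSG00000019916.14, chromosome 10 from 59323296 to 59373304, plus strand, GRCm38) encodes the alpha subunit that is most widely expressed. It had 68.4, 58.2 and 47.9 CPM in Control and 181 and 208 CPM in Confine. The groups were well apart, and the log2 fold change was 1.74 (standard error 0.19, 95% interval 1.34 to 2.14, edgeR adjusted p = 2.14e-06), a 3.35-fold increase. P4ha2 (ENSMUSG00000018906.14, chromosome 11 from 54100095 to 54131665, plus strand) encodes the second alpha subunit, known from cartilage, bone and endothelium. Its counts were 5116, 2837 and 3607 in Control and 28484 and 23347 in Confine, which correspond to 177, 107 and 153 CPM against 962 and 926 CPM. The Control libraries spread over a wider relative range than the Confine libraries, and every Confine value exceeded every Control value by far. The log2 fold change was 2.70 (standard error 0.21, 95% interval 2.26 to 3.13, edgeR adjusted p = 2.88e-08), a 6.48-fold increase.

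P4ha3 (ENSMUSG00000051048.17, chromosome 7 from 100285520 to 100319699, plus strand), the alpha subunit described last and expressed at lower levels in most tissues, was the only hydroxylase lower in Confine past the threshold. It had 27.3, 23.0 and 27.6 CPM in Control and 15.5 and 14.6 CPM in Confine. The groups did not overlap, and the log2 fold change was -0.79 (standard error 0.19, 95% interval -1.19 to -0.38, edgeR adjusted p = 0.00608). With 1 Confine library left, the value stayed close, at -0.82 without Confine 1/2 and -0.75 without Confine 3, but the edgeR adjusted p rose to 0.0618 and 0.0932.

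The bases before the start sites of these genes are shown since the 3 alpha subunits moved apart. The 250 bases upstream were taken from RefSeq (GRCm38.p6) for 7 of the 9 genes, and there were none for P3h2 and Plod2. They were searched for ACGTG and GCGTG, the core letters bound by hypoxia-inducible factors, on both strands, so that CACGT and CACGC count too and ACGTG overlaps CACGT in CACGTG. Capitals mark the matches in P4ha1 (chr10:59323046-59323295, plus strand), P4ha2 (chr11:54100674-54100923, plus strand), P4ha3 (chr7:100285270-100285519, plus strand) and Plod1 (chr4:147936777-147937026, minus strand), each written 5′ to 3′ towards the RefSeq start site. That start can differ from the GENCODE gene bounds given here, and for P4ha2 it lies inside them.
P4ha1: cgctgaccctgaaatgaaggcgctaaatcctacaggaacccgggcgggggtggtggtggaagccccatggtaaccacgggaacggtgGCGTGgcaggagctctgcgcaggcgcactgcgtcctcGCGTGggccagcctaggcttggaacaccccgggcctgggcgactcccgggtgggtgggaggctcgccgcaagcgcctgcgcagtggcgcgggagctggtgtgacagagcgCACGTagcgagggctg
P4ha2: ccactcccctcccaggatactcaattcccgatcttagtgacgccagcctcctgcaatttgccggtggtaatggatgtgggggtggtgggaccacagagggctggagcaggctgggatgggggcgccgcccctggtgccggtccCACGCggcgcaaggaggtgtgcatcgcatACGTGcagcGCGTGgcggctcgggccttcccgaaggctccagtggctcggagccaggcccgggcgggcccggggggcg
P4ha3: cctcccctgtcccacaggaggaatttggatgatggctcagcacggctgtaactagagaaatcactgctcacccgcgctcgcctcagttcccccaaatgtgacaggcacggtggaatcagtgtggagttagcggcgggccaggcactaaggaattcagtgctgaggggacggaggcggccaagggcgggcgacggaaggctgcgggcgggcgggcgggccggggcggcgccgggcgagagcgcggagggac
Plod1: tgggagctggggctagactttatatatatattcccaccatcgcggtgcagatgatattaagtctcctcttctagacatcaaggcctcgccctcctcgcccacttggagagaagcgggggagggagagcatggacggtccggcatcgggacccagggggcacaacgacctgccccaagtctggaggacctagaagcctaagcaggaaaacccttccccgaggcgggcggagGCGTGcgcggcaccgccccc

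The P4ha1 stretch held 3 matches and the P4ha2 stretch 3, of which the match nearest to the start ended 12 and 65 bases before it. The P4ha3 stretch held 0 and the Plod1 stretch 1, ending 16 bases before the start. The 7 genes had 8 stretches, since P3h1 has 2, and 6 of these held a match. Of the 13190 such stretches of tested genes 54.4% held one, and of all 32851 38.6%. Plod3, with a smaller log2 fold change, had 4 matches, and P3h3, which was higher in Confine, had 0. The matches are a description of letters and were not tested as binding sites.

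All 3 lysyl hydroxylases were higher in Confine, by very different amounts. Plod2 (ENSMUSG00000032374.14, chromosome 9 from 92542223 to 92608428, plus strand) encodes the enzyme that hydroxylates lysines in the telopeptides, the ends of the chain from which stable crosslinks form. Its counts were 191, 196 and 105 in Control and 1969 and 2374 in Confine, or 6.59, 7.40 and 4.46 CPM against 66.5 and 94.2 CPM. Both Confine libraries lay far above every Control library, with Confine 3 the higher of them, and the log2 fold change of 3.70 (standard error 0.23, 95% interval 3.22 to 4.19, edgeR adjusted p = 1.77e-09) was the largest of the 9 genes, a 13.01-fold increase. Of the 15881 tested genes, 114 had a higher value, so that Plod2 ranked 115.

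Plod1 (ENSMUSG00000019055.15, chromosome 4 from 147909753 to 147936767, minus strand) encodes the enzyme that acts on lysines within the helix. It had 80.3, 82.1 and 77.8 CPM in Control and 376 and 389 CPM in Confine. Replicates lay close together, with a mean of 80.1 ± 2.11 CPM (SD, n = 3) in Control and 382 ± 8.82 CPM (SD, n = 2) in Confine, and the log2 fold change was 2.26 (standard error 0.17, 95% interval 1.90 to 2.62, edgeR adjusted p = 2.76e-08), a 4.78-fold increase. Plod3 (ENSMUSG00000004846.10, chromosome 5 from 136987019 to 136996648, plus strand) encodes the lysyl hydroxylase that can also attach sugars to hydroxylysine. It had 138, 107 and 97.7 CPM in Control and 177 and 178 CPM in Confine. The groups did not overlap, though Control spread from 97.7 to 138 CPM. The log2 fold change was 0.63 (standard error 0.19, 95% interval 0.24 to 1.03, edgeR adjusted p = 0.0198).

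The call for Plod3 was lost without Control 3, Confine 1/2 or Confine 3 (edgeR adjusted p of 0.0997, 0.113 and 0.128). Plod3 also shares 529 of its exon bases, 11.7%, with Znhit1, which runs in the other direction. Znhit1 had 2767 counts on average and a log2 fold change of 0.97 (edgeR adjusted p = 4.43e-04), so reads of this stretch cannot be told apart if counting ignored the strand, a setting not given in the sources used here. Plod2 shares 346 exon bases with the oppositely oriented Gm38391, whose average was 22.6 counts against 967 for Plod2.

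Among the prolyl 3-hydroxylases, P3h1 and P3h3 were moderately higher in Confine. P3h3 (ENSMUSG00000023191.9, chromosome 6 from 124841089 to 124857752, minus strand) is known as a partner of lysyl hydroxylase 1 in a complex with P3h4. It had 38.5, 35.2 and 32.8 CPM in Control and 71.4 and 69.6 CPM in Confine. The spread within each group was small, and the log2 fold change was 0.99 (standard error 0.18, 95% interval 0.62 to 1.36, edgeR adjusted p = 3.97e-04). P3h1 (ENSMUSG00000028641.16, chromosome 4 from 119232915 to 119248975, plus strand), which hydroxylates a proline of fibrillar collagens in a complex with Crtap and Ppib, had 30.4, 36.8 and 25.7 CPM in Control and 48.6 and 46.1 CPM in Confine. The groups did not overlap, and a log2 fold change of 0.61 (standard error 0.19, 95% interval 0.21 to 1.01, edgeR adjusted p = 0.0267) was found. This was the weakest of the 8 calls: it was lost without Control 1, Control 3, Confine 1/2 or Confine 3 (edgeR adjusted p of 0.0874, 0.111, 0.177 and 0.134) and, among the fits that each left out a library, held only without Control 2.

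P3h2 (ENSMUSG00000038168.5, chromosome 16 from 25959288 to 26105784, minus strand), known for acting on collagen IV of basement membranes, had few counts. There were 59, 15 and 51 counts in Control and 11 and 30 in Confine, or 2.04, 0.566 and 2.17 CPM against 0.371 and 1.19 CPM, where 3 counts correspond to 0.101 to 0.128 CPM. The groups overlapped through Control 2, and the log2 fold change of -1.04 (standard error 0.58, 95% interval -2.25 to 0.17) had an edgeR adjusted p of 0.216. Without Control 2 it was -1.45 with an adjusted p of 0.0459, and over the fits that each left out a library it ran from -2.08 to -0.41. P3h2 shares 1055 exon bases, 28.4%, with the oppositely oriented Gm4524, which had 3.2 counts on average against 33.2 for P3h2. It also holds short stretches of at least 95% identity to other genes, the most abundant being D10Wsu102e with 1027 counts on average and a match of 121 bases, so its low counts are uncertain.

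The normalization set where the smaller changes fell. With library size alone in place of the TMM method, the log2 fold changes moved by a median of -0.21, 1444 genes were higher and 2805 lower in place of 2035 and 1619, and 5 of the 9 hydroxylases were higher. P3h1 then had a log2 fold change of 0.40 (edgeR adjusted p = 0.140) and Plod3 of 0.43 (edgeR adjusted p = 0.0965). The directions of all 9 genes were the same as with TMM.

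Since CPM do not compare genes of different length, levels within a family were compared per kilobase of exon (CPM per kb, with exon lengths from GENCODE M21). P4ha2 was already the highest alpha subunit in Control, with 23.4 ± 5.67 CPM per kb (SD, n = 3), and reached 151 ± 4.01 CPM per kb (SD, n = 2) in Confine. Its share of the alpha subunit transcripts was 52.8%, 44.4% and 54.6% in Control and 75.9% and 72.9% in Confine. The share of P4ha3 was 16.2%, 19.0% and 19.5% in Control and 2.43% and 2.29% in Confine. P4ha1 made up 31.0%, 36.6% and 25.9% in Control and 21.7% and 24.8% in Confine. Thus the share of P4ha2 was higher and those of P4ha3 and P4ha1 lower in Confine, with no overlap between the groups. For P4ha1 the difference was -7.885 percentage points (exact two-sided permutation test, p = 0.2).

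Among the lysyl hydroxylases the order of Plod3 and Plod1 differed between the groups. Plod3 made up 70.0%, 63.7% and 63.7% of the family's transcripts per length in Control and 36.6% and 34.4% in Confine, whereas Plod1 made up 27.2%, 32.6% and 33.9% and then 51.9% and 50.3%. The share of Plod2 was 2.80%, 3.69% and 2.44% in Control and 11.5% and 15.3% in Confine. The difference for Plod2 was 10.4 percentage points, with no overlap (exact two-sided permutation test, p = 0.1, the smallest that 3 against 2 libraries allow). Adjusted over 3 such tests, of the P4ha1 share, the Plod2 share and the ratio of hydroxylases to fibrillar collagens, this permutation p was 0.15. The same test was also computed for the other shares, sums and ratios given here, which the adjustment does not cover. The prolyl 3-hydroxylase family shifted less, with P3h3 at 51.7 ± 3.23% (SD, n = 3) in Control and 58.9 ± 0.170% (SD, n = 2) in Confine, and P3h2 at most 3.73% in any library.

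**Figure D2:**
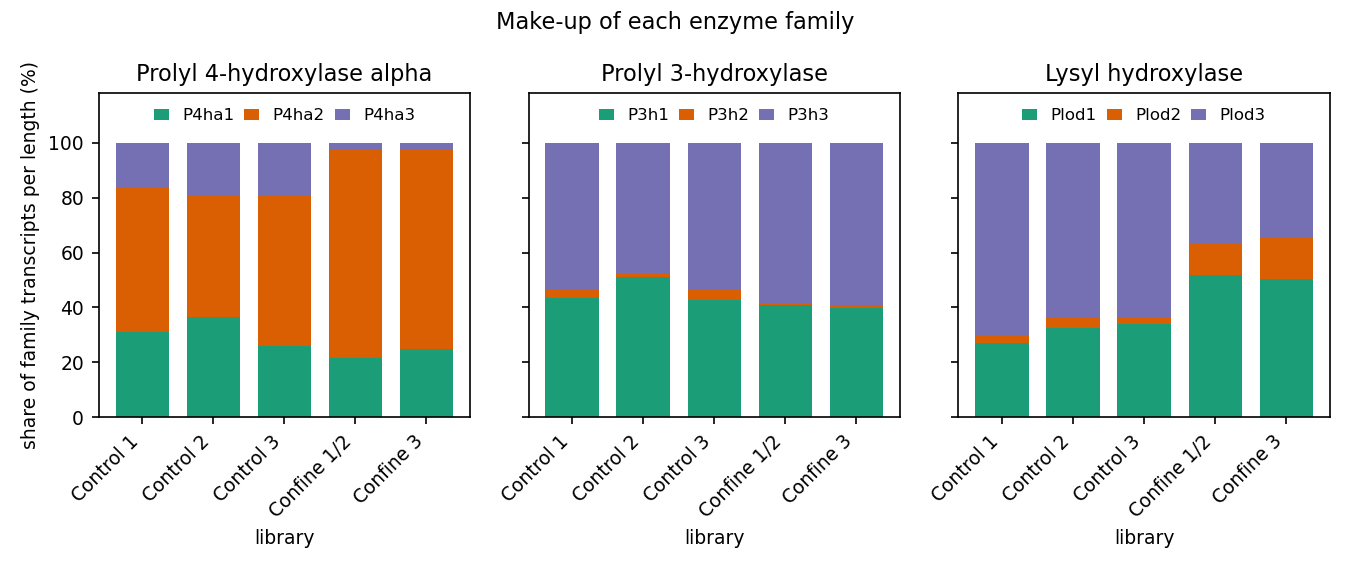
Share of each gene (%) in the transcripts of its enzyme family per exon length, stacked for each of the 5 libraries. P4ha2 and Plod1 take the largest part of their families in both Confine libraries, whereas Plod3 does so for the lysyl hydroxylases in all 3 Control libraries.

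The summed level of the alpha subunits was 45.8 ± 7.53 CPM per kb (SD, n = 3) in Control and 203 ± 0.440 CPM per kb (SD, n = 2) in Confine, a ratio of 4.45. For the lysyl hydroxylases the summed level was 38.3 ± 4.95 and 111 ± 5.05 CPM per kb, a ratio of 2.89, and for the prolyl 3-hydroxylases 17.5 ± 1.65 and 30.5 ± 0.621 CPM per kb, a ratio of 1.74. The alpha subunits therefore made up 59.0% of all hydroxylase transcripts per length in Confine against 44.96% in Control, and the prolyl 3-hydroxylases 8.84% against 17.4%. These per-length levels use all annotated exons of a gene and would shift if the cells used a subset of them.

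The next question was how the enzymes moved relative to their substrate. Fibrillar collagen chains, which form the fibrils of connective tissue, had a summed level of 673, 663 and 570 CPM per kb in Control and 1009 and 978 CPM per kb in Confine, a ratio of the means of 1.56. The log2 ratio of hydroxylase to fibrillar collagen transcripts was -2.54, -2.81 and -2.59 in Control and -1.56 and -1.49 in Confine. Hydroxylase transcripts were thus 2.17-fold higher relative to collagen transcripts, with no overlap between the groups (exact two-sided permutation test, p = 0.1, the smallest possible here, and 0.15 adjusted over the same 3 tests as above). By family, the same ratio was 2.86-fold higher for the alpha subunits, 1.85-fold for the lysyl hydroxylases and 1.11-fold for the prolyl 3-hydroxylases, whose log2 ratio was -5.20, -5.15 and -5.19 in Control and -5.03 and -5.03 in Confine.

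The collagen chains themselves were uneven. Of 11 fibrillar chains, 9 were tested, 5 were higher and 1 lower in Confine, against 12.8% higher and 10.2% lower over all tested genes, and their median log2 fold change was 0.60. Col5a3, a chain of the minor type V collagen, had 1.80, 2.91 and 2.68 CPM in Control and 44.2 and 39.2 CPM in Confine (log2 fold change 4.09, standard error 0.23, edgeR adjusted p = 4.91e-10). Col3a1, the type III chain, followed with 2.21 and Col27a1 with 1.45 on the log2 scale. The most abundant chains were Col1a1, with a mean of 2351 CPM in Control and 3706 CPM in Confine, and Col1a2, with 2314 and 2737 CPM. Their log2 fold changes were 0.66 (edgeR adjusted p = 0.00945) and 0.24 (edgeR adjusted p = 0.359), and these chains weigh most in the summed collagen level. Of 6 basement membrane chains, 4 were tested and 2 were higher, where 12.8% of all tested genes were. These were Col4a2 and Col4a1, with log2 fold changes of 1.02 and 0.91, and Col4a4 had 0.72 (edgeR adjusted p = 0.417).

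Genes that work with the hydroxylases were compared in the same fit. Of 14 listed partners and procollagen folding genes, 13 were tested, 1 was higher, 1 lower and 11 did not pass the threshold, with a median log2 fold change of 0.24. With 13 genes, 1 in each direction is close to the shares over all tested genes, 12.8% higher and 10.2% lower. In 6 of the 13 both Confine libraries lay above every Control library, as in 25.9% of tested genes. In 0 of them both lay below, as in 23.6%. P4hb, the beta subunit that holds the alpha subunits in solution and is itself a disulfide isomerase, was the one that was higher past the threshold. It had 1153, 794 and 1025 CPM in Control and 2316 and 2127 CPM in Confine, and the log2 fold change of 1.17 had a standard error of 0.19 (edgeR adjusted p = 1.53e-04). The log2 ratio of alpha subunits to P4hb per length was -2.91, -2.84 and -2.99 in Control and -1.99 and -1.87 in Confine, a 1.98-fold difference without overlap.

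Serpinh1, the collagen chaperone HSP47, was the lower one, with 1672, 644 and 1230 CPM in Control and 402 and 763 CPM in Confine. The groups overlapped, since Confine 3 lay above Control 2, and the log2 fold change of -1.02 had a standard error of 0.31 (edgeR adjusted p = 0.0238). The call was lost without Control 1 (log2 fold change -0.69, edgeR adjusted p = 0.0856) or Confine 1/2 (-0.63, adjusted p = 0.291) and with DESeq2 (adjusted p = 0.201), and without Confine 3 the value was -1.56.

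The complex partners of the prolyl 3-hydroxylases had small differences. Crtap, the helper protein of P3h1, had a log2 fold change of 0.16 (95% interval -0.27 to 0.59), and -0.050 with library size alone. Ppib, the cyclophilin of the same complex, had 0.34 (95% interval -0.036 to 0.72), and P3h4, the partner of P3h3, had 0.40 (95% interval 0.020 to 0.78). None of these passed the threshold (edgeR adjusted p of 0.631, 0.190 and 0.125). The log2 ratio of P3h1 to Crtap per length was -1.71, -1.65 and -1.54 in Control and -1.02 and -1.35 in Confine, without overlap. That of P3h1 to Ppib was -1.71, -1.22 and -2.08 in Control and -1.35 and -1.44 in Confine, and here the groups overlapped.

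For the genes that act after or beside lysyl hydroxylation, Fkbp10, a peptidyl-prolyl isomerase known to work with lysyl hydroxylase 2, had a log2 fold change of -0.064 (95% interval -0.50 to 0.37), against 3.70 for Plod2. Colgalt1, which adds galactose to hydroxylysine, had -0.36 (95% interval -0.78 to 0.065), against 2.26 for Plod1. The log2 ratio of Plod1 to Colgalt1 per length was -1.13, -1.28 and -0.71 in Control and 1.52 and 1.58 in Confine, below 0 in every Control library and above 0 in both Confine libraries. Colgalt2, its paralog, had 0 counts in every library, which allows a level of up to 0.101 to 0.128 CPM.

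The remaining partners ranged from -0.035 to 0.49 on the log2 scale. Fkbp9 and Fkbp14, isomerases of the endoplasmic reticulum, had log2 fold changes of -0.035 and 0.24. Mia3, the receptor that loads procollagen into transport carriers, had 0.14, and Tmem38b, an ion channel of the endoplasmic reticulum, had 0.48. Creb3l1 and Creb3l2, transcription factors for genes of matrix secretion, had 0.49 (edgeR adjusted p = 0.0647) and 0.24.

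**Figure D3:**
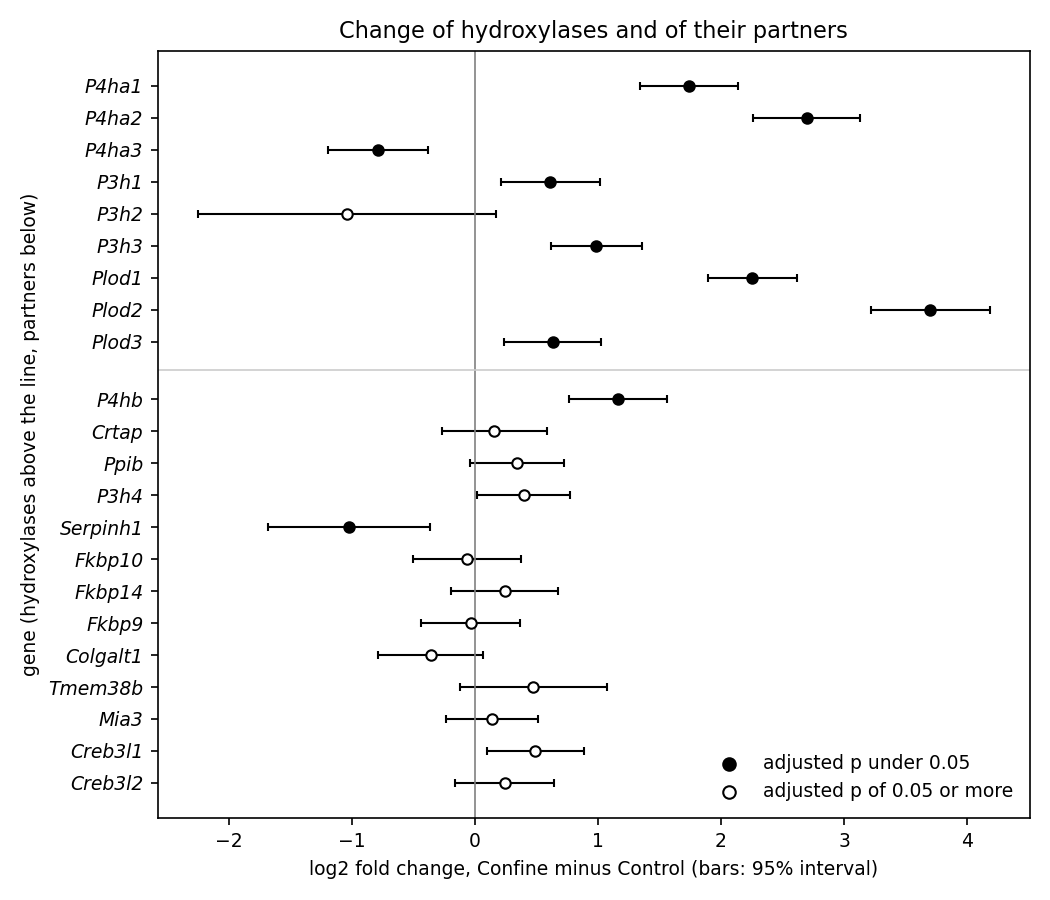
Log2 fold change of Confine over Control (x axis) for the 9 hydroxylases (above the line) and the 13 tested partners (below it), with 95% intervals of edgeR's quasi-likelihood fit; filled points have an adjusted p under 0.05. Intervals of 7 hydroxylases lie above 0, and among the partners only P4hb and Serpinh1 have filled points.

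Other hydroxylases that use the same cosubstrates were compared next. Of 11 listed protein hydroxylases outside collagen synthesis, 10 were tested, 3 were higher and 7 did not pass the threshold, where 12.8% of all tested genes were higher. Egln1, a prolyl hydroxylase that marks hypoxia-inducible factors for breakdown, had 29.7, 40.0 and 26.3 CPM in Control and 213 and 305 CPM in Confine (log2 fold change 3.02, standard error 0.22, edgeR adjusted p = 1.25e-08). Jmjd6, a nuclear lysyl hydroxylase, had a log2 fold change of 1.69, and Asph, which hydroxylates epidermal growth factor-like domains, had 0.93. The median of this list was -0.16, against 0.99 for the collagen hydroxylases and -0.002 for all tested genes.

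Genes that supply the enzymes were few. Of 6 listed, 5 were tested, 2 were higher and 1 lower, where 12.8% and 10.2% of all tested genes were. Slc23a2, an ascorbate importer, had 11.9, 13.6 and 11.01 CPM in Control and 24.4 and 29.4 CPM in Confine, with a log2 fold change of 1.14 (standard error 0.20, edgeR adjusted p = 2.73e-04). Slc39a13, a zinc transporter whose loss impairs lysyl hydroxylation, had a log2 fold change of 1.02 (edgeR adjusted p = 3.42e-04). Idh1, which makes 2-oxoglutarate in the cytosol, had 151, 202 and 203 CPM in Control and 124 and 107 CPM in Confine, with a log2 fold change of -0.68 (standard error 0.19, edgeR adjusted p = 0.0147).

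Of the 5 lysyl oxidases, which turn lysine and hydroxylysine into crosslinks, 2 were higher and 3 did not pass the threshold, where 12.8% of all tested genes were higher. Lox had 342, 360 and 284 CPM in Control and 1009 and 1217 CPM in Confine, with a log2 fold change of 1.76 (standard error 0.18, edgeR adjusted p = 1.24e-06). Loxl2 had a log2 fold change of 2.20 at low levels, up to 1.14 CPM in Control and up to 5.20 CPM in Confine, and Loxl4 had 0.35 (edgeR adjusted p = 0.212).

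Among all tested genes, 99.3% had a lower log2 fold change than Plod2, 98.4% than P4ha2, 97.6% than Plod1 and 96.0% than P4ha1. For P3h3, Plod3 and P3h1 these shares were 90.2%, 83.4% and 82.8%. For P4ha3 it was 11.7%. For P3h2, which had few counts and did not pass the threshold, it was 7.64%. The estimates of the family thus reached from the upper to the lower part of the distribution.

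**Figure D4:**
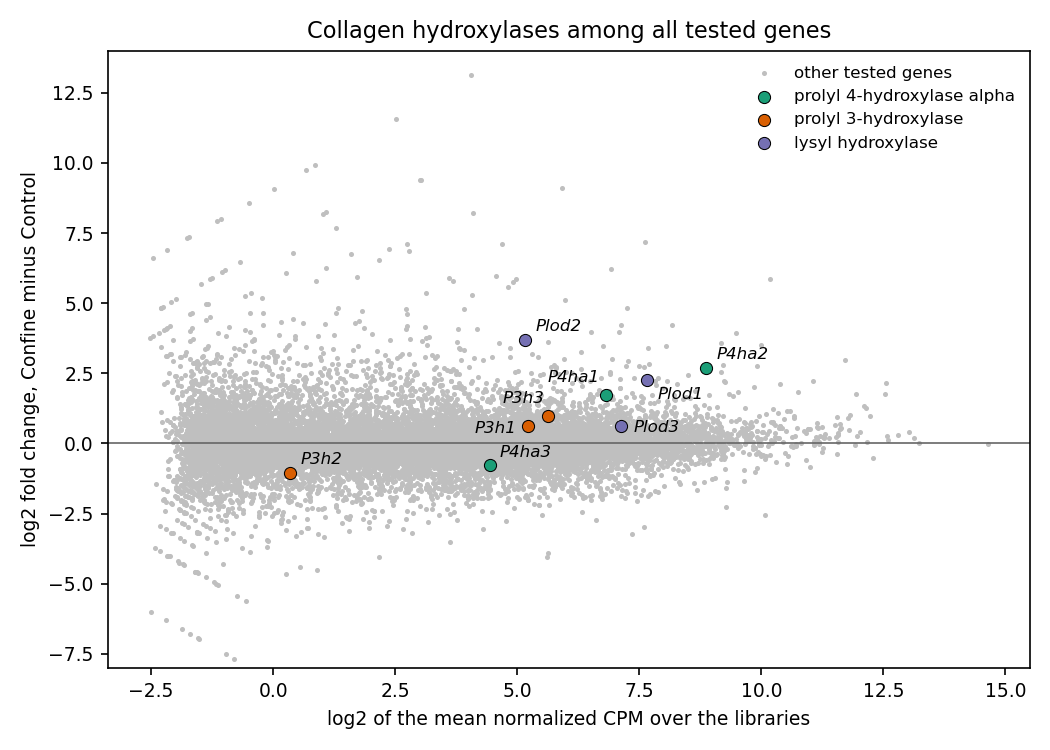
Log2 fold change of Confine over Control (y axis) against the log2 of the mean normalized CPM over the libraries (x axis) for all 15881 tested genes (gray), with the 9 hydroxylases in color by family. Plod2, P4ha2, Plod1 and P4ha1 lie above 1.5, P4ha3 and P3h2 lie below 0, and P3h2 lies far to the left at a low level.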

How the data were processed

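RNA-seq libraries of MEFs were compared between Confine and Control. The authors deposited raw counts per gene without normalization. The submitters' processing notes name Trim Galore 0.6.10, HISAT2 2.1.0, SAMtools 1.5 and featureCounts with mm10; strand setting and annotation release were not given in the sources used here, and these could move counts between overlapping genes. Gene names, positions and exon lengths came from GENCODE M21 (GRCm38), which holds 55154 of the 55335 identifiers without their version. Columns not used numbered 0, and rows naming no gene 0.

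The identical columns of Confine replicates 1 and 2 entered once. After filterByExpr and TMM scaling, edgeR 4.0.16 (R 4.3.3) gave quasi-likelihood F tests with 3 residual degrees of freedom, Benjamini-Hochberg adjustment and a threshold of 0.05. Intervals are at 95%. A floor of 3 counts equals 0.101 to 0.128 CPM, and covers counting error only: no molecular identifiers separated PCR copies. Shares and ratios used CPM per kb and exact permutation tests over libraries. Near-identical transcripts were searched with blastn 2.17.0. The fit was tested on simulated data.

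All 9 members and all listed partners were named, with up to 3 genes of largest change from each other list. Col1a1 and Col1a2 were added as the most abundant fibrillar chains. As pattern most like Plod2, the 5 genes with the highest correlation were taken. Members and lists were chosen with earlier results of these data known. Alternatives were RLE size factors, library size alone, other filters, DESeq2 1.42.0, limma-voom (limma 3.58.1), a replicate block, all 6 columns as samples, and leaving out each library.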

Additional observations from a re-analysis of the deposited data

How the results depend on the processing

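Of the 126 values for the 9 hydroxylases under alternatives, 0 changed direction, 12 lost the call (P3h1 6, Plod3 4, P4ha3 2) and 2 gained it (P3h2). The calls of Plod2, P4ha2, Plod1, P4ha1 and P3h3 held under all 14 alternatives, and 4 to 5 hydroxylases passed the fold cutoff in either direction. The count of 5 arose only in the replicate block with the repeated library as replicate 1, through P3h2, lower in Confine with a log2 fold change of -1.57. For changes, the cause was not tested. With library size alone, 2805 genes were lower, and 2 partners. With DESeq2, 0 partners were lower. With all 6 columns as separate samples, which repeats a library, 2456 genes were lower and 3 partners higher. The labels number replicates alike in both groups, but nothing says that the numbers pair samples, and with 2 pairs the differences correlated at 0.052 or -0.053. With the replicate block and the repeated library as replicate 1, 2 hydroxylases were lower and 3 partners higher, and as replicate 2, 0 partners were lower and P3h1 lost its call (adjusted p = 0.107), with 1 residual degree of freedom. That pairing called 2528 genes and the other 4933, against 3654.

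Fits without 1 library, in which a lone Confine library is assumed to vary like the Control libraries, gave 1196 to 2411 genes higher and 850 to 2015 lower, 5 to 7 hydroxylases higher and 0 to 2 lower, and 1 to 2 partners higher and 0 to 1 lower. The difference in the Plod2 share ran from 8.54 to 12.3 percentage points. Without division by length, the log2 ratio of hydroxylases to fibrillar collagens differed by 1.33 in place of 1.12. Small partner differences changed sign with library size alone (Crtap -0.050, Mia3 -0.068), with the replicate block (Fkbp10 0.11 with the repeated library as replicate 2, Fkbp9 0.079 as replicate 1) and over the fits without 1 library (Crtap -0.011 to 0.30, Fkbp10 -0.26 to 0.079, Fkbp9 -0.20 to 0.11, Creb3l2 -0.0036 to 0.45).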

Other observations

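Over the 5 libraries, the genes of at least 10 CPM whose log2 CPM correlated most with that of Plod2 were Lox (a lysyl oxidase), Klf10 (a TGF-β-inducible transcription factor), Pla2g4a (a phospholipase), Prkar2b (a regulatory subunit of protein kinase A) and Rpl10 (a ribosomal protein), with Pearson's r from 0.9995 for Rpl10 to 0.9999 for Lox. Their log2 fold changes differed in size, at 1.76, 1.66, 1.25, 0.50 and 0.61. The 5 points fall into 2 groups and share their normalization, and 143 of 8400 genes compared had r above 0.99, so the ranking is a description of these libraries only. Among the hydroxylases, P4ha1 and Plod1 had r of 0.993 and 0.991 with Plod2, and P4ha3 had -0.985.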
